A study of Oryza sativa Indica Group with 11 samples.

Results

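P5CS1, P5CS2 and BADH1 are rice genes for the synthesis of compatible solutes, the small neutral molecules that plant cells accumulate under salt or drought. They were found by symbol or synonym, with a leading Os dropped, and are measured by 6 of the 57381 probe sets of the array. P5CS1 (LOC4338979) and BADH1 (LOC4336081) have 1 probe set each, and P5CS2 (LOC4324853) has 4, called here the leading, the second, the third and the fourth by mean brightness. The annotation gives 17905 genes in all, and the 95 probe sets that it assigns to several genes include 0 for these 3.

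Delta-pyrroline-carboxylate synthetase, the product of both P5CS genes, catalyses the rate-limiting step from glutamate to proline, and plant genomes commonly hold a constitutively expressed copy and a stress-responsive one. Betaine aldehyde dehydrogenase, the product of BADH1, oxidises betaine aldehyde to glycine betaine and also acts on aminoaldehydes from polyamine breakdown. Rice accumulates proline under salt but is known as a species that makes little or no glycine betaine.

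Transcripts were measured in crown and growing point tissue pooled from several plants per sample, with 1 sample per Affymetrix rice array. IR29 is an indica cultivar that is sensitive to salt, and FL478, a recombinant inbred line bred from IR29 and the landrace Pokkali, tolerates it. The groups are FL478 control plants (n = 3), salt-stressed FL478 (n = 3), IR29 control plants (n = 2) and salt-stressed IR29 (n = 3). The labels used here give no salt dose, duration or plant age, and nothing in them says whether the replicates came from separate cultures, so p-values measure the spread between these samples. Each line is 1 genotype, so a difference between the lines is a difference between these 2 genotypes.

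The arrays share a trimmed mean intensity of 500.1 and had median intensities of 48.2 to 73.1. On the first principal component, with 23.5% of the variance, 1 array of each line lay nearest to the other line. FL478 salt replicate 2 lay at -22.26 there, against -62.57 to -44.14 for the other FL478 arrays. IR29 control replicate 1 lay at 31.48, against 55.24 to 74.95 for the other IR29 arrays. The second component, with 13.2%, set partly different arrays apart. IR29 control replicate 1 lay at -95.15, FL478 control replicate 3 at -67.47 and FL478 control replicate 2 at 53.08. FL478 salt replicate 2 lay at 8.42 on it. All 5 measured KNOX genes, markers of the growing point, were above a mean log2 intensity of 7. The 5 root genes had summed intensities of 936.7 to 1591.8 over all arrays, against 4569.8 to 10354.3 for the KNOX genes. Of the latter, OSH1 alone read 3200.2 to 6873.1. Gene by gene the sets overlapped, with mean log2 values of 7.28 to 12.13 for the KNOX genes and 6.01 to 9.15 for the root genes. Of the 3 leaf genes measured, CAB2R and RBCS were bright (lowest intensities of 22525.9 and 3163.1), while RBCS1 was dim (2.5 to 53.9). Transcripts of photosynthesis genes were thus present, and how much green tissue the pooled samples held was not measured. In such bulk samples, fewer cells of a type and less RNA per cell cannot be told apart.

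Intensities below are the deposited linear values. Differences are on the log2 scale of the intensity plus a pseudocount of 16, after quantile normalization, with standard errors (SE) from limma over all 11 arrays. A difference counts as called at a Benjamini-Hochberg adjusted p under 0.05 over all 57258 probe sets tested.

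P5CS2 had the largest salt difference of the 3 genes in both lines. Its leading probe set read 110.1, 388 and 109.2 in the FL478 controls and 596.2, 1026.5 and 323.4 in the FL478 salt arrays. In IR29 it read 216 and 529.4 in the controls and 1618.5, 814.8 and 1317.1 under salt. Every IR29 salt array lay above both IR29 controls, as for 10.8% of all probe sets, while in FL478 control replicate 2 lay above salt replicate 3 and the groups overlapped. Replicate 2 was the highest array of its group in both control groups and in salt-stressed FL478, and the lowest of salt-stressed IR29.

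The fitted salt difference of P5CS2 was 1.66 ± 0.52 (SE, n = 3 and 3) in FL478, which is 3.15-fold, and 1.77 ± 0.58 (SE, n = 3 and 2) in IR29, which is 3.41-fold. Neither was called, with limma adjusted p of 0.879 and 0.476. Ranked by p, these values stood at place 512 in FL478 and 1219 in IR29 among all probe sets. Only 0.0506% of all probe sets had a value at least as high in FL478 and 0.201% in IR29. The spread between replicate arrays was wide: the residual SD of 0.81 was above that of 97.7% of the probe sets with a mean within 0.5 of its own. Leaving out IR29 control replicate 1 lowered the IR29 value to 1.13, and leaving out IR29 control replicate 2 gave 2.40.

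Over both lines the mean salt response of P5CS2 was 1.71 ± 0.39, a 3.28-fold difference with a 95% interval of 0.86 to 2.56. It stood at place 214 of 57258 by p (limma adjusted p = 0.233) and was not called. Without both FL478 salt replicate 2 and IR29 control replicate 1 it was 1.21, with a limma adjusted p of 0.632. The difference between the responses of the lines was 0.12 ± 0.78, with a 95% interval of -1.58 to 1.81, so neither a larger nor a smaller response of IR29 by several-fold could be told from an equal one.

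**Figure D1:**
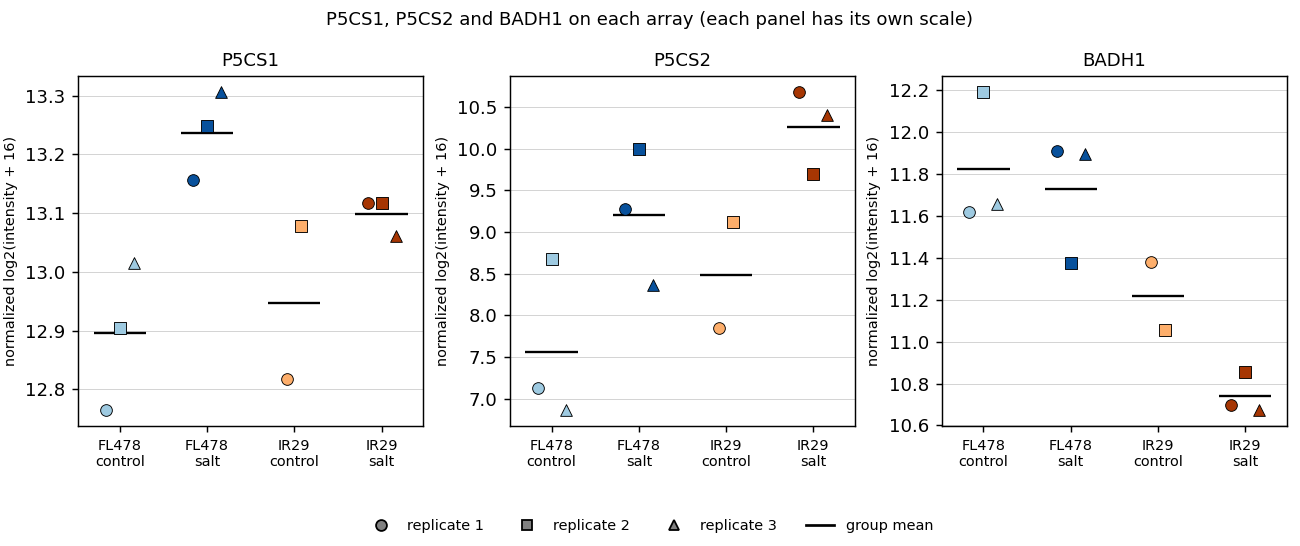
Normalized log2(intensity + 16) of P5CS1, P5CS2 (leading probe set) and BADH1 on each of the 11 arrays, with 1 point per array, replicate numbers as symbols and group means as bars. The P5CS2 values under salt exceed both controls in IR29 and overlap the controls in FL478, and BADH1 is lowest in salt-stressed IR29; each panel has its own vertical scale.

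The other 3 probe sets of P5CS2 were dim, and their fitted salt differences were smaller than those of the leading one in both lines. The second read 10.6 to 35.9 in FL478 controls, 32 to 96.2 in salt-stressed FL478, 40.2 and 45.5 in IR29 controls and 33 to 46 in salt-stressed IR29. Its salt difference was 0.79 ± 0.39 in FL478 and 0.0049 ± 0.44 in IR29. The FL478 value was 0.50 without FL478 salt replicate 2 and 0.43 with a pseudocount of 64. The third read between 8 and 57.2 over all arrays, with salt differences of -0.59 ± 0.37 in FL478 and 0.18 ± 0.41 in IR29. The fourth stayed under the pseudocount on all 11 arrays (0.2 to 15.8), and differences there carry no level. None of the 3 was called in any comparison. Across the 11 arrays, which share the lines and the treatment, the second followed the leading probe set with a Pearson r of 0.68 (Spearman rho 0.74), and with 0.72 within groups. The third and the fourth had r of -0.23 and -0.34 with it. The salt and line values of P5CS2 therefore rest on 1 probe set.

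**Figure D2:**
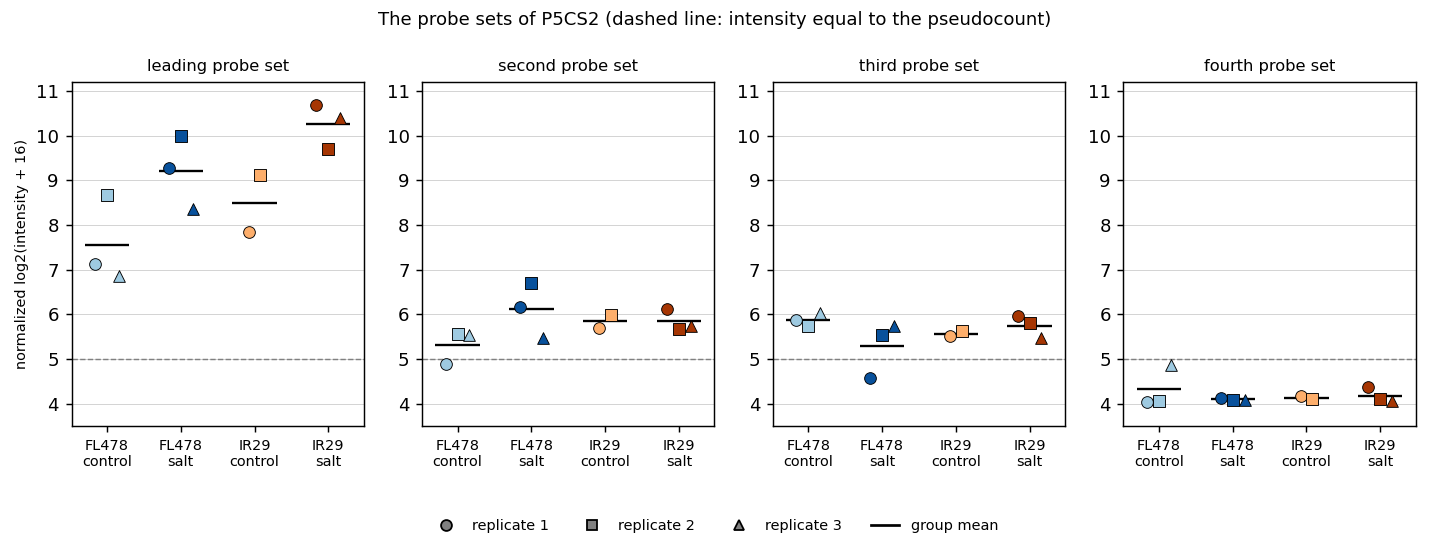
Normalized log2(intensity + 16) at the 4 probe sets of P5CS2 on each array, on 1 common scale, with group means as bars and a dashed line where the intensity equals the pseudocount of 16. The leading probe set lies far above the line, and the fourth lies below it on all 11 arrays.

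P5CS1 was bright on every array and varied little. It read 7073.1, 7798.8 and 8194.1 in the FL478 controls and 9046.3, 9063.2 and 9560.7 under salt, so every FL478 salt array lay above every FL478 control. In IR29 it read 7351.5 and 8765.9 in the controls and 8924.5, 9016.5 and 8686.8 under salt, where salt replicate 3 lay below control replicate 2. Its whole range over the arrays was 1.35-fold, against 14.8-fold for the leading probe set of P5CS2.

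The salt difference of P5CS1 in FL478 was 1.27-fold, and its interval on the log2 scale ran from 0.11 to 0.57 (place 450 by p, limma adjusted p = 0.871). Of all probe sets, 5.49% were likewise higher on each FL478 salt array. In IR29 the interval was -0.10 to 0.41 (limma adjusted p = 0.835), and the mean over both lines was 0.25 ± 0.079 (adjusted p = 0.456). The IR29 value was 0.021 without IR29 control replicate 1 and 0.28 without IR29 control replicate 2. The responses of the lines differed by -0.19 ± 0.16 (IR29 minus FL478, limma adjusted p = 0.942), a value that ran from -0.32 when IR29 control replicate 1 was dropped to -0.063 when IR29 control replicate 2 was, with -0.13 without FL478 control replicate 1 and -0.12 with the values as deposited.

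Within arrays, the log2 difference between P5CS2 and P5CS1 was larger under salt by 1.31 in FL478 and by 1.62 in IR29. This pair was chosen after its values were seen, so the difference is given without a test, and it says nothing of the levels of the genes relative to each other.

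BADH1 showed no called difference between salt and control. In FL478 it read 3163.2, 4689.6 and 3208 in the controls and 3844.1, 2599.4 and 3718.8 under salt. These groups overlapped, and the difference of -0.096 ± 0.18 changed sign without FL478 control replicate 2 or salt replicate 2 (0.087 and 0.080). In IR29 it read 2640.1 and 2128.3 in the controls and 1646.3, 1841.7 and 1609.2 under salt, with every salt array below both controls. That difference was -0.47 ± 0.20, a 1.39-fold lower level (limma adjusted p = 0.64), and 12.7% of all probe sets were lower in every IR29 salt array. It was -0.31 without IR29 control replicate 1. The response of IR29 minus that of FL478 was -0.38 ± 0.27, with an interval of -0.97 to 0.21 (adjusted p = 0.939 by limma), and it was -0.22 without IR29 control replicate 1.

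Counted over the 6 probe sets, 0 were called in the salt response of FL478, where 0.00873% of all probe sets were called. Likewise 0 were called in that of IR29 (0.00524% of all), in the mean of both (0.0332%) and in the difference between the lines (0%). At an unadjusted limma p under 0.05 the count was 2 of 6 in FL478, P5CS1 and P5CS2, both higher, where 5.41% of all probe sets passed. In IR29 it was 2 of 6, P5CS2 higher and BADH1 lower, against 7.37% of all. In the mean of both lines it was P5CS1 and P5CS2 again, against 7.56%, and in the difference between the responses it was 0 of 6, against 5.34%. The members were chosen with earlier results of these data known, so these counts are a description and no independent test.

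Some other values differed between salt and control arrays. Cyclophilin has probe sets at both transcript ends, and their log2 difference (3' minus 5'), which grows with RNA degradation, spanned 1.00 to 1.16 in salt-stressed IR29, 0.71 and 0.91 in its controls, 0.69 to 1.24 in salt-stressed FL478 and 0.41 to 0.88 in FL478 controls. The same measure of actin was 0.66 to 0.79 against 0.48 and 0.50 in IR29 and overlapped in FL478 (0.70 to 1.03 against 0.60 to 0.90). That of GAPDH overlapped in both lines, at 0.33 to 0.56 against 0.28 and 0.56 in IR29 and 0.51 to 0.55 against 0.41 to 0.65 in FL478. All 4 secondary wall genes used as vascular markers (CESA4, CESA7, CESA9 and IRX9L) were measured, and their summed intensity was 7434 to 10368.2 in salt-stressed IR29 against 4404 and 4962.9 in its controls, and 5492.7 to 7610.6 against 4658.2 to 5196.3 in FL478. The sum over 5 genes of dividing cells was 16690.1 to 21426.7 in salt-stressed IR29 against 22235.6 and 26588.7 in its controls, and 18351.6 to 21912.5 against 21602.4 to 26628.4 in FL478. The part of these in the salt values of P5CS1, P5CS2 and BADH1 was not tested.

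The lines differed in BADH1. It was 1.73-fold lower in IR29 than in FL478 over control and salt plants together, with a log2 difference of -0.79 ± 0.14 and a 95% interval of -1.09 to -0.50 (limma adjusted p = 0.00605). The 6 FL478 arrays read 2599.4 to 4689.6 with a median of 3463.4, and the 5 IR29 arrays read 1609.2 to 2640.1 with a median of 1841.7. Of the IR29 arrays, 4 of 5 lay below every FL478 array. The exception was IR29 control replicate 1, at 2640.1, just above FL478 salt replicate 2, at 2599.4. These are the arrays nearest to the other line on the first principal component. Without both of them the difference was -0.96, the largest over all alternatives. That setting was chosen after seeing the data and drops, from each line, the array nearest to the other line on the first component, which separates the lines.

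Under salt BADH1 was 1.98-fold lower in IR29, with a difference of -0.98 ± 0.18 (SE, n = 3 and 3, limma adjusted p = 0.0148), and every IR29 salt array lay below every FL478 salt array. P5CS1 was also lower on each IR29 salt array than on each FL478 one, with a difference of -0.14 ± 0.10 (limma adjusted p = 0.702), or -0.055 with the values as deposited. The BADH1 call under salt ended in 5 of 20 alternative analyses: without FL478 salt replicates 1 or 3 (adjusted p of 0.0904 and 0.0851 by limma), without IR29 salt replicates 1 or 3 (0.0768 and 0.0667), and without a mean-variance trend (0.0728). In control plants the difference was -0.61 ± 0.20 (n = 2 and 3), 1.52-fold, with both IR29 controls below all FL478 controls, and it was not called (limma adjusted p = 0.32). Every IR29 array was lower in 11.1% of all probe sets in control plants and in 9.46% under salt. The call over both conditions held in all 19 alternatives run for it, with differences from -0.96 to -0.70 and adjusted p values from 0.0019 to 0.0471, the highest without IR29 control replicate 2.

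Of the 6 probe sets, BADH1 was the 1 called between the lines under salt, where 1.73% of all probe sets were called, and the 1 called over both conditions, where 2.84% were. Under salt it was also the 1 of 6 with an unadjusted limma p under 0.05 (11.4% of all). In control plants 0 of 6 were called (0.814% of all), and 1 of 6, BADH1, had an unadjusted limma p under 0.05 (8.97% of all). As for salt, the way the members were chosen makes these counts a description only. BADH1 has a single probe set among those with a gene in the annotation, so no second measure of it was used. Its line difference is a difference in the signal of that 1 probe set. The mean normalized log2 value over the 5 KNOX genes was also lower in IR29, at 8.88 to 9.29 in its arrays and 9.37 to 9.94 in FL478. Their summed intensities overlapped between the lines, at 4569.8 to 6461 in IR29 and 6123.7 to 10354.3 in FL478. The part of the KNOX values in the BADH1 difference was not tested.

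BADH2 (LOC4345606), the second rice betaine aldehyde dehydrogenase and the gene behind fragrance in rice grain, was measured for comparison. It read 2782.2 to 4490.5 in FL478 and 2955.3 to 4190.6 in IR29, with medians of 3590.2 and 3647.7, and the lines overlapped. Its line difference was 0.025 ± 0.12, with a 95% interval of -0.25 to 0.30 (limma adjusted p = 0.968). The line difference of BADH1 relative to BADH2 within arrays was -0.76 in control plants and -0.87 under salt. These 2 values were computed after those of each gene were seen, so they are given without a test.

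P5CS2 and P5CS1 had no called line difference. The leading probe set of P5CS2 was higher in IR29 by 0.93 ± 0.58 in control plants, 1.05 ± 0.52 under salt and 0.99 ± 0.39 over both, 1.98-fold (limma adjusted p = 0.288). Its unadjusted p over both conditions was under 0.05, as was that of 12.9% of all probe sets. The value in control plants ran from 0.29 without IR29 control replicate 2 to 1.58 without IR29 control replicate 1, and was 0.59 without FL478 control replicate 3 and 1.49 without FL478 control replicate 2. The value under salt was 0.62 without FL478 salt replicate 3. P5CS1 differed by -0.043 ± 0.079 over both conditions, with an interval of -0.21 to 0.13.

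**Figure D3:**
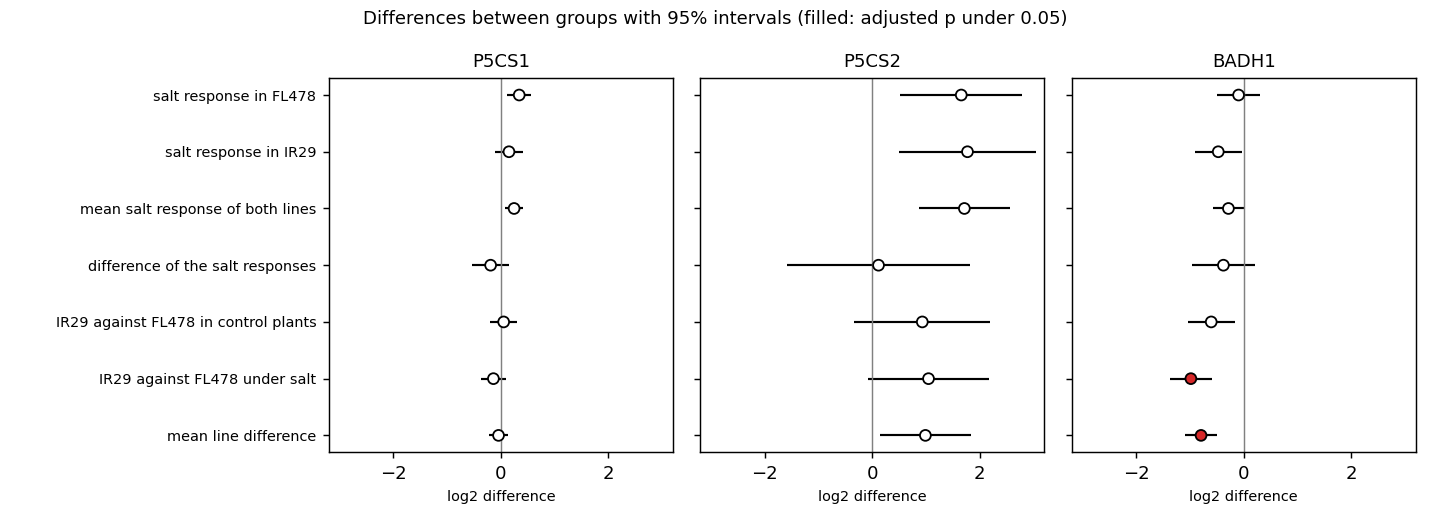
Log2 differences of the leading probe sets of P5CS1, P5CS2 and BADH1 in the 7 comparisons, with points for the fitted values, bars for 95% intervals and filled points for an adjusted p under 0.05. The filled points are the 2 line differences of BADH1, at -0.98 under salt and -0.79 over both conditions.

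The 4 groups ranked differently for each gene. Mean log2 values of P5CS2 were 7.55 ± 0.98 (SD) in FL478 controls, 8.48 ± 0.90 in IR29 controls, 9.21 ± 0.81 in salt-stressed FL478 and 10.25 ± 0.51 in salt-stressed IR29 (n = 3, 2, 3 and 3), and each neighbouring pair in this order overlapped. For BADH1 the order was salt-stressed IR29 (10.74 ± 0.10), IR29 controls (11.22 ± 0.23), salt-stressed FL478 (11.73 ± 0.30) and FL478 controls (11.82 ± 0.32), and only the first 2 neighbours did not overlap. P5CS1 ran from 12.90 ± 0.13 in FL478 controls through 12.95 ± 0.18 in IR29 controls and 13.10 ± 0.03 in salt-stressed IR29 to 13.24 ± 0.08 in salt-stressed FL478, and only the last 2 neighbours did not overlap.

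Around these genes, 18 others of proline, betaine, glutamate, GABA and polyamine metabolism could be matched, each taken at its brightest probe set. No probe set was matched for proline breakdown (PRODH, P5CDH), for P5CR, or for the glutamate decarboxylases and polyamine oxidases searched. From betaine synthesis BADH2 alone was matched, so the values below do not cover these other steps. None of the 18 was called in the salt response of FL478 or IR29, where 0.00873% and 0.00524% of all probe sets were. At an unadjusted limma p under 0.05, 1 gene was lower in FL478, against 5.41% of all probe sets in either direction, and 3 were lower and 1 higher in IR29, against 7.37%. The median salt difference of the 18 was 0.018 in FL478 and -0.099 in IR29, against 0.0036 and -0.011 over all probe sets.

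Other genes of proline synthesis and transport had no called salt response. OAT, the ornithine aminotransferase of the alternative route to proline, had a mean salt response of -0.0070 ± 0.086. ARG1, an arginase gene upstream of that route, had -0.012 ± 0.088, and PROT, a proline transporter gene, had -0.053 ± 0.099. Between the lines, OAT was higher in IR29 by 0.32 ± 0.086 (limma adjusted p = 0.0767) and PROT had a line difference of -0.26 ± 0.099 (adjusted p = 0.257), both without a call.

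Among the genes of glutamate supply, GLN1-2, a cytosolic glutamine synthetase gene, had a mean salt response of -0.54 ± 0.12, and GDH1, a glutamate dehydrogenase gene, of -0.38 ± 0.12 (limma adjusted p of 0.204 and 0.424). The 1 called gene of the 18 was GDH2, a further glutamate dehydrogenase gene, which was higher in IR29 over both conditions by 0.70 ± 0.16 (limma adjusted p = 0.043), in a comparison that called 2.84% of all probe sets. Its other 2 probe sets had line differences of 0.0047 ± 0.31 and 0.012 ± 0.15, and the call held in 6 of 19 alternatives.

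**Figure D4:**
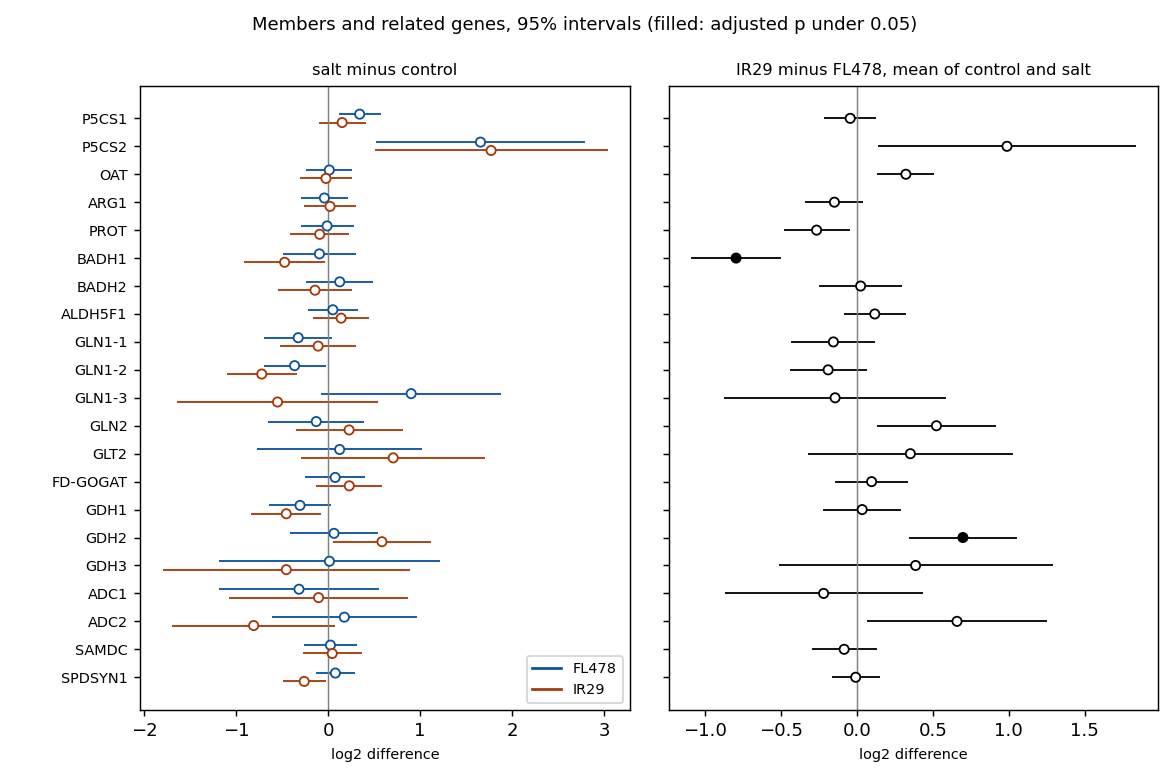
Log2 differences with 95% intervals for P5CS1, P5CS2, BADH1 and the 18 related genes, under salt in each line (left) and between the lines over both conditions (right), with filled points for an adjusted p under 0.05. P5CS2 lies farthest to the right under salt in both lines, and BADH1 and GDH2 are the filled points between the lines.

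The named genes whose pattern over the 11 arrays was most like each gene were taken from 2639 probe sets by Pearson correlation, as a description, since all points share the 2 lines and the treatment. For BADH1 they were LOL2, a zinc finger gene (r = 0.95), Alpha-ETF, an electron transfer flavoprotein subunit gene (r = 0.94), and Cyt-RPEase, a cytosolic ribulose-phosphate epimerase gene (r = 0.94), with line differences of -1.74, -0.49 and -0.45. For P5CS2 they were GLYI-11 of the glyoxalase I family (r = 0.92), LAC10, a laccase gene (r = 0.89), and BRE1B (r = 0.87), with mean salt responses of 0.13, 0.57 and 0.66. For P5CS1 they were Q-enzyme, a starch branching enzyme gene (r = 0.92), RAB16B, the gene of a dehydrin (r = 0.85), and PLD1, a phospholipase D gene (r = 0.84). Their mean salt responses were 0.29, 1.87 and 0.15. Their line differences over both conditions were -0.0028, -0.94 and 0.026, against -0.043 for P5CS1, so RAB16B differed from it between the lines.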

How the data were processed

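The deposited values are linear signal intensities, 1 for each probe set on each array. The authors made them with GCOS 1.2, per the submitters' processing notes, and how GCOS was set is not stated there. They come without detection calls. After 123 control probe sets were dropped, log2(intensity + 16) was quantile normalized, because array medians had been up to 0.47 apart. Each probe set was then fitted by limma 3.58.1 (R 4.3.3) with 1 mean per group (11 arrays, 7 residual degrees of freedom) and a mean-variance trend, tested two-sided. The fit was tested on simulated data, and the number of arrays limits its precision. Plots came from matplotlib 3.10.9 and pandas 2.3.3 under Python 3.11.15.

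Names came from the array's annotation and the RefSeq genes of ASM3414082v1. The array was not designed on that assembly, and no coordinates are printed. Related genes were matched by symbol or synonym, without unrelated genes of like symbol (endoglucanase GLU, growth factor GS2). Text values use the brightest probe set of a gene, all probe sets for P5CS2, and, for likeness, the 3 highest r among named probe sets with a mean of at least 6. The members and lists were chosen with earlier results of these data known.

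The labels give replicate numbers but no pairing, and the main fit used none. Deviations of same-numbered arrays from their group means correlated at -0.051 to 0.13 over 15 pairs, 2 of them over 0.1. For arrays of different number the range was -0.15 to 0.15 over 30 pairs, 2 of them over 0.1. These values do not settle whether the numbers pair the samples. Alternatives were the values as deposited, pseudocounts of 1 and 64, a limit on dim probe sets, no trend and array weights. Others were the replicate number as a block, the compared groups alone and each array left out. A further one, chosen after seeing the data, left out both FL478 salt replicate 2 and IR29 control replicate 1.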

Additional observations from a re-analysis of the deposited data

How the results depend on the processing

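For the leading probe sets of P5CS1, P5CS2 and BADH1, 393 of 411 values under alternatives kept their direction and their side of the threshold. The BADH1 line difference under salt was no longer called without a trend (-0.98), and ran from -1.16 to -0.89 as arrays were left out. With the replicate number as a block (replicate block) no call of these 3 genes changed, and the BADH1 line difference over both conditions was -0.80 (adjusted p = 0.0157 by limma); that block called 14 probe sets in the IR29 salt response against 3 without it, and 40 in the mean response against 19. Values that changed sign were all without a call, and the cause was not tested. As arrays were left out, the salt difference of BADH1 in FL478 ran from -0.20 to 0.087, the difference of the P5CS2 responses from -0.53 to 0.75, and the P5CS1 line difference from -0.077 to 0.18 in control plants and from -0.11 to 0.023 over both conditions, where it was 0.0049 with the values as deposited. At the second probe set of P5CS2 the IR29 salt difference ran from -0.14 to 0.15 (-0.13 as deposited), the line difference under salt from -0.59 to 0.024 and that over both conditions from -0.036 to 0.34. At the third the line difference over both conditions ran from -0.10 to 0.19. At the fourth the ranges were -0.37 to 0.053 (FL478 salt), -0.050 to 0.11 (IR29 salt, -0.017 with the block), -0.0022 to 0.42 (difference of responses), -0.16 to 0.052 (mean salt response), -0.34 to 0.083 and -0.019 to 0.14 (lines in control and salt) and -0.13 to 0.081 (lines over both, 0.016 with a pseudocount of 1). The mean salt responses of OAT, ARG1 and PROT ran from -0.084 to 0.069, -0.051 to 0.045 (0.00045 with the block) and -0.11 to 0.0057, and the line difference of BADH2 from -0.056 to 0.12 (-0.0083 with the block). Over all alternatives the number of called probe sets ran from 0 to 8 in the FL478 salt response, 0 to 65 in IR29, 0 to 21 in their difference, 2 to 43 in their mean, 148 to 560 and 543 to 1660 between the lines in control and salt plants, and 1095 to 1943 over both. The limits are the 2 IR29 controls, the lack of detection calls, and the single informative probe set of each gene.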
